A study of Rattus norvegicus with 11 samples.

Results

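Xiap, Casp8, Bax, Bbc3, Bcl2l1, Mcl1, Ripk1, Ripk3 and Mlkl are 9 genes of the apoptosis and necroptosis machinery. They were chosen by gene symbol among 24481 genes with read counts and 24205 genes with FPKM, a level normalized for gene length and library size. All 9 were listed in both tables and had enough reads to be tested in each comparison. On the mRatBN7.2 build of the files, Xiap lies on chromosome X, Casp8 on 9, Bax and Bbc3 on 1, Bcl2l1 on 3, Mcl1 on 2, Ripk1 on 17, Ripk3 on 15 and Mlkl on 19, all as protein-coding genes. RNA of the ileum was measured in SD rats of 6 to 8 weeks with severe acute pancreatitis (SAP), an inflammation of the pancreas that also injures the gut. SAP was induced by infusing sodium taurocholate, a bile salt, backwards into the pancreatic duct. The question for the ileum was what SAP does to gene expression and whether JZL184 changes it. JZL184 inhibits MAGL, the enzyme that degrades the endocannabinoid 2-AG.

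The control group had 3 libraries, the SAP group 4 and the JZL184 group 4, 11 libraries in all. The rats were assigned to groups 24 h after surgery. Rats of the JZL184 group, which also had SAP, received an intraperitoneal dose of 10 mg/kg, and control and SAP rats received vehicle. All were killed 24 h later. The protocol places this assignment of all 3 groups, the control included, after the operation, and does not describe a separate procedure for the control rats. The labels name a control plasmid for the control group and the library titles name oil for the SAP group, where the protocol describes vehicle. The labels also name intestinal epithelial cells, whereas the source was ileum tissue, and smooth muscle markers summed to 367 to 2115 FPKM per sample. In such bulk tissue, fewer cells of a type and less RNA per cell cannot be told apart.

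Some libraries stood apart from their labels or their group. Depth was alike, with 26341299 to 33847135 reads on genes per library, and the 9 genes had between 192 and 14530 reads in each. Control libraries 1 and 2 differed by a chi-square of 2.81 per gene, against 77.5 to 563 in the other pairs of libraries of 1 group. They were counted as 1 sample, with reads summed and FPKM averaged, so that n was 2 in the control group and 4 in the others. SAP library 2 had 20 reads on Uty, Kdm5d and Eif2s3y, genes of the Y chromosome, whereas the others had at least 1222. It also had 7826 reads on LOC100911498, which had at most 56 elsewhere, although the study describes male rats. SAP libraries 1 and 2 differed from SAP libraries 3 and 4 in a trend on gene length. Against the control mean, the median of the 1417 longest genes lay 0.86 and 0.95 higher on the log2 scale in SAP libraries 1 and 2, against 0.11 and 0.04 in SAP libraries 3 and 4. The median of the 1417 shortest genes fell by 0.74 and 0.78 in SAP libraries 1 and 2. In JZL184 libraries 1 to 4 the median of the longest genes lay at 0.37, 0.13, 0.35 and 0.38, and that of the shortest at -0.31, 0.10, -0.15 and -0.16. Results of the 9 genes that rest on SAP libraries 1 or 2 are therefore given with and without them.

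Apoptosis and necroptosis are 2 programs of cell death that share a switch. In apoptosis, proteins of the BCL2 family decide whether pores form in the outer mitochondrial membrane, and caspases, started from mitochondria or from death receptors, then take the cell apart without spilling its content. In necroptosis, which proceeds where CASP8 is inactive, RIPK1 and RIPK3 form a complex and RIPK3 phosphorylates MLKL, which breaks the plasma membrane. In the gut epithelium, CASP8 is known to hold this second route back. Activity of these proteins is set by cleavage, phosphorylation and binding, which RNA levels do not show.

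Regions just before the start of transcription are shown for the 3 necroptosis genes and for Mcl1, the member with the highest level. They allow Mlkl, which separated SAP from both other groups, to be read beside its partners. RefSeq windows of the GRCr8 build were matched by symbol for 5 of the 9 genes, with more than 1 window for Bcl2l1 alone. Each window runs 5′ to 3′ on the strand of the gene and ends at the base before the start of transcription. Capitals mark a match to 1 of 5 motifs searched on both strands.
Mlkl, chr19:56213859-56214108, minus strand: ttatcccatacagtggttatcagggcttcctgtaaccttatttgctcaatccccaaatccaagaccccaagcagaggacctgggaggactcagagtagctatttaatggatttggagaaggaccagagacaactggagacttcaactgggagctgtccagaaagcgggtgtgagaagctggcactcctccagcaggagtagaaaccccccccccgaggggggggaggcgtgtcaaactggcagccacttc
Ripk3, chr15:33262026-33262275, minus strand: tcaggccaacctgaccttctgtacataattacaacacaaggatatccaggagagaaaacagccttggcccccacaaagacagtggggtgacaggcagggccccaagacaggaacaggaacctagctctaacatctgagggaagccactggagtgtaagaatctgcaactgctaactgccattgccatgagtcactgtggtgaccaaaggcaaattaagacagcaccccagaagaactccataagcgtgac
Ripk1, chr17:31077168-31077417, minus strand: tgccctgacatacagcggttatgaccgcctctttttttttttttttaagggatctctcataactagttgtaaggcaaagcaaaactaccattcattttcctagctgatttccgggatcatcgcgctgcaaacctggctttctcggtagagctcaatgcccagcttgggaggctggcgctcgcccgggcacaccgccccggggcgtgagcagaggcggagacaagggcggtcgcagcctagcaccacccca
Mcl1, chr2:185907918-185908167, plus strand: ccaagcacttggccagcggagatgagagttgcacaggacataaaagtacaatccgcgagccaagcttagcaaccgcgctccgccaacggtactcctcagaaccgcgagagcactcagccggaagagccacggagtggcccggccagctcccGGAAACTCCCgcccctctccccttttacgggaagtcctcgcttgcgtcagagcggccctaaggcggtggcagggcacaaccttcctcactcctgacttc

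The 5 motifs were the interferon-stimulated response element (GAAA, any NN and GAAA), the gamma-activated site TTCNNNGAA, the kappaB motif, the p53 half-site and the TATA box TATAAA. They occur in 3.41%, 7.67%, 6.33%, 6.64% and 12.9% of the 33469 windows of all genes. The windows of Mlkl, Ripk3 and Ripk1 held no match to these letters. The window of Mcl1 held 1 kappaB match on the minus strand, from 99 to 90 bases before the start. Of the Bcl2l1 windows, a pair that overlap hold the same 2 gamma-activated site matches, TTCGGAGAA and TTCATTGAA. The matches did not overlap another motif. GC content was 54% in the Mlkl window, 50.4% for Ripk3, 55.2% for Ripk1 and 62% for Mcl1, with a median of 51.2% over all windows.

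FPKM is per length, so levels of different genes can be set side by side only as far as the length used holds. The length implied by reads and FPKM was 15.6 kb for Bcl2l1 and 0.905 kb for Bax. The trend on gene length also enters such comparisons. Over the 10 samples, Mcl1 had the highest mean level at 46.0 FPKM. It was followed by Ripk3 at 25.0, Bax at 24.8, Mlkl at 12.6, Casp8 at 9.08, Xiap at 7.77, Ripk1 at 7.08, Bbc3 at 3.32 and Bcl2l1 at 2.91. Neighbours such as Ripk3 and Bax, or Xiap and Ripk1, lay closer to each other than the spread over samples. The genes differed more in how much they varied. Between its lowest and its highest sample, Mlkl varied 13.0-fold, Xiap 9.84-fold, Ripk3 9.39-fold and Casp8 6.29-fold, whereas Bax varied 1.82-fold and Bcl2l1 1.76-fold. For Mlkl, Xiap, Ripk3 and Casp8, the highest sample was SAP library 1.

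**Figure D1:**
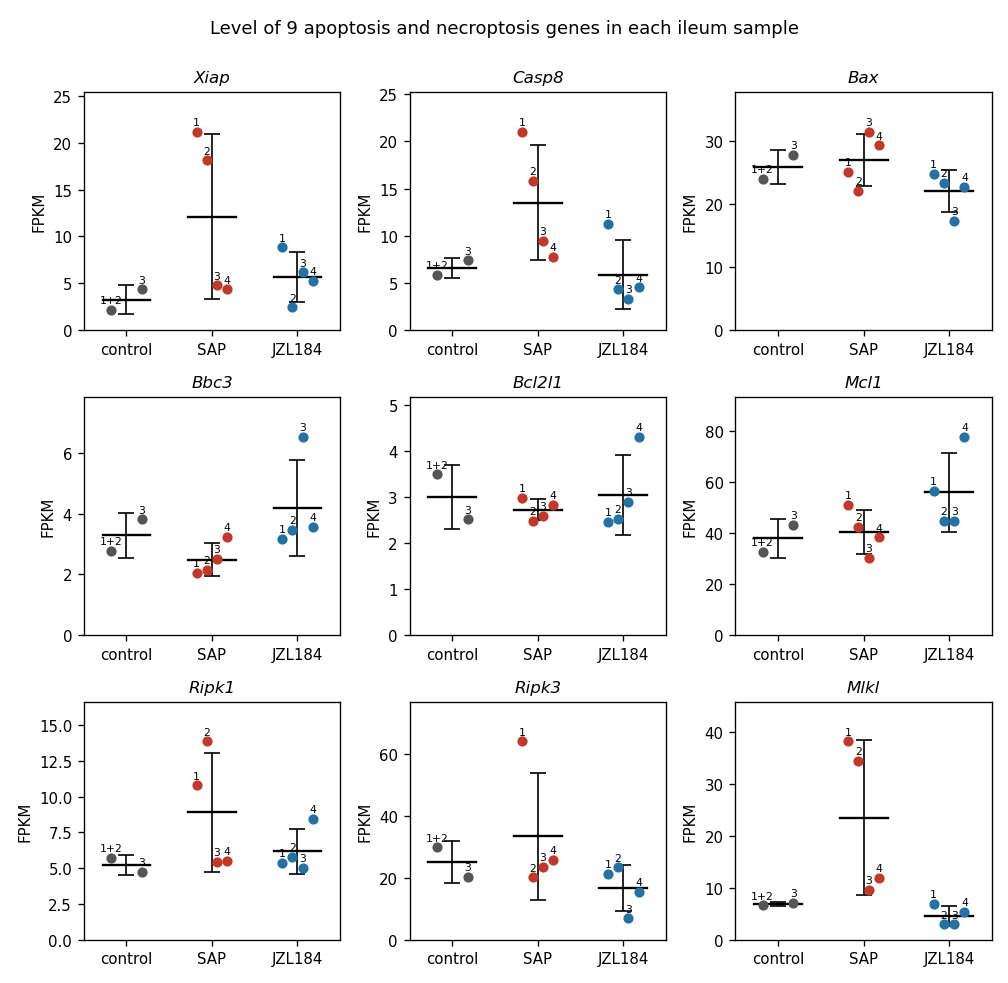
FPKM of each of the 9 genes (vertical axis, linear from 0) in the control, SAP and JZL184 groups. Points are samples with their library number (1+2 is the mean of control libraries 1 and 2), lines are means and bars are SD. Mlkl lay between 9.55 and 38.19 in SAP and between 2.93 and 6.85 in JZL184.

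Mlkl encodes the pseudokinase that carries out necroptosis. Its FPKM was 6.51, 6.70 and 7.09 in the control libraries. In the SAP group it was 38.19, 34.40, 9.55 and 11.82, and in the JZL184 group 6.85, 2.93, 2.93 and 5.35. All 4 SAP libraries lay above all control and all JZL184 libraries, with SAP libraries 1 and 2 far above SAP libraries 3 and 4. The means were 6.85 ± 0.343 (SD, n = 2) in the control group, 23.5 ± 14.9 (n = 4) in SAP and 4.52 ± 1.93 (n = 4) in JZL184. In the JZL184 group, the highest library overlapped the control libraries on the FPKM scale.

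Ripk3 encodes the kinase that phosphorylates MLKL. Its FPKM was 30.81, 28.73 and 20.28 in the control libraries and 64.11, 20.12, 23.42 and 25.75 in the SAP libraries. In the JZL184 libraries it was 21.18, 23.30, 6.83 and 15.52. SAP library 1 was far above every other library, while the remaining SAP libraries lay within or near the control range. SAP library 2, which had the second highest Mlkl level, had the lowest Ripk3 level of its group.

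Ripk1 encodes the kinase that links tumor necrosis factor receptors to survival signals or to either form of death. Its FPKM was 5.50, 5.94 and 4.73 in the control libraries and 10.81, 13.89, 5.45 and 5.51 in the SAP libraries. In the JZL184 libraries it was 5.39, 5.80, 5.04 and 8.44. Only SAP libraries 1 and 2 were above all JZL184 libraries, and SAP libraries 3 and 4 lay within the control range.

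Casp8 encodes the initiator caspase of the death receptor route. Its FPKM was 5.85, 5.92 and 7.39 in the control libraries and 21.01, 15.80, 9.45 and 7.78 in the SAP libraries. In the JZL184 libraries it was 11.28, 4.32, 3.34 and 4.54. The SAP libraries were all above the control libraries. JZL184 library 1 overlapped the SAP group, and the other JZL184 libraries lay below every control library.

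Xiap, on the X chromosome, encodes an inhibitor that binds caspases directly. Its FPKM was 2.17, 2.13 and 4.38 in the control libraries and 21.15, 18.12, 4.78 and 4.38 in the SAP libraries. In the JZL184 libraries it was 8.83, 2.46, 6.19 and 5.25. The lowest SAP library equaled the highest control library. SAP libraries 1 and 2 were again far above the rest, and they include the library with few Y-linked reads.

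Among the BCL2 family, Mcl1, which keeps mitochondria intact, had FPKM of 33.42, 31.49 and 43.22 in the control libraries and 50.86, 42.33, 30.08 and 38.20 in the SAP libraries. In the JZL184 libraries it was 56.31, 44.67, 44.58 and 77.65. All JZL184 libraries lay above all control libraries on this scale, the lowest at 44.58 against 43.22 in control library 3. In normalized read counts these groups overlapped, while 18.9% of all genes were higher in JZL184 without overlap. The SAP libraries overlapped both groups. Bbc3, which encodes PUMA, a p53 target that blocks the survival proteins, had FPKM of 2.87, 2.66 and 3.81 in the control libraries. It was 2.04, 2.14, 2.51 and 3.23 in the SAP libraries and 3.17, 3.47, 6.54 and 3.56 in the JZL184 libraries. The SAP libraries were mostly the lowest, with SAP library 4 above JZL184 library 1.

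Bax, whose protein forms the mitochondrial pore, had FPKM between 22.14 and 31.51 in the SAP libraries and between 17.34 and 24.87 in the JZL184 libraries. The control libraries lay at 23.93, 24.24 and 27.83. Bcl2l1, which encodes BCL-XL, another survival protein, lay between 2.48 and 2.99 in SAP and between 2.46 and 4.32 in JZL184. It was 3.51, 3.49 and 2.52 in the control libraries. The groups overlapped for both genes in each comparison.

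**Figure D2:**
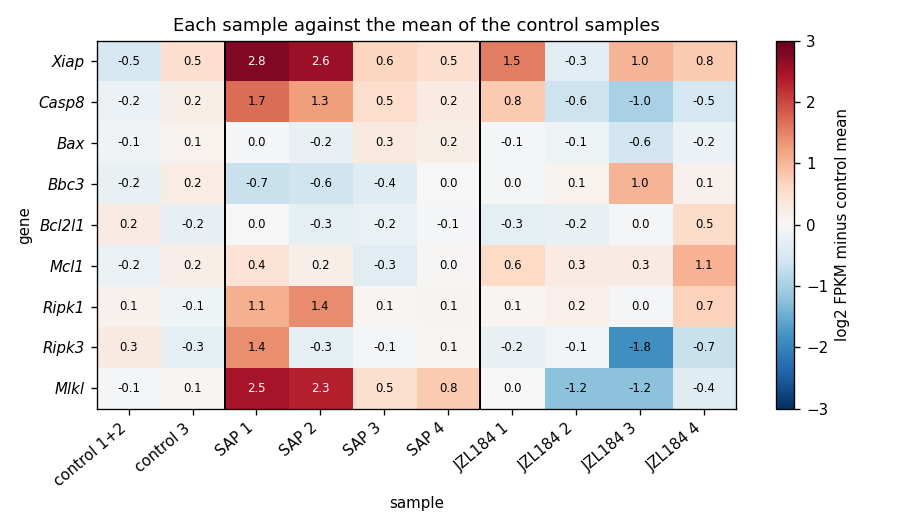
Log2 FPKM of each gene (rows) in each sample (columns) minus the mean of the control samples, from blue (lower) to red (higher), with the value in each cell. The darkest red cells of Xiap, Casp8, Ripk1 and Mlkl lie in SAP libraries 1 and 2, and Mlkl is below or near the control mean in the JZL184 samples.

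SAP against control asks what pancreatitis changed in the ileum. The mean levels of Mlkl, Xiap and Casp8 were higher in SAP, and none of the 9 genes passed the test. A gene counted as called if, in edgeR's quasi-likelihood test on read counts, p adjusted by Benjamini-Hochberg was under 0.05 and the fold over 2 or under 0.5. By this rule 0 of the 9 genes were called, as were 0% of the 16029 genes tested. DESeq2 also called 0 of the 9, against 1.23% of its genes, and limma-voom 0, against 0.0873%. At an unadjusted p below 0.05 in edgeR, 2 of the 9 were higher and 0 lower, against 9.09% of all genes in either direction.

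Mlkl had a log2 fold change of 1.57 (SE 0.59) in SAP against control, a 2.96-fold higher level, with an edgeR adjusted p of 0.459. Xiap had a log2 fold change of 1.69 (SE 0.72) with the same adjusted p of 0.459, and Casp8 one of 0.83 (SE 0.41), again with 0.459. CPM were read counts scaled to library size with TMM normalization factors. In CPM, the 3 genes Mlkl, Xiap and Casp8 had no overlap between the groups, all higher in SAP. This held for 11.3% of all genes in that direction and 11.9% in the other. Xiap did not separate on FPKM, with 4.38 in both control library 3 and SAP library 4. On FPKM, the two-sided exact permutation p was 0.133 for Mlkl and Casp8 and 0.2 for Xiap, where 4 samples against 2 cannot give less than 0.0667.

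The other 6 genes had smaller differences. On the log2 scale the fold changes were 0.56 (SE 0.42) for Ripk1, 0.22 (SE 0.51) for Ripk3, -0.07 (SE 0.30) for Mcl1 and -0.09 (SE 0.31) for Bax. They were -0.55 (SE 0.36) for Bbc3 and -0.32 (SE 0.29) for Bcl2l1. Of the 9, 5 were positive and 4 negative, with a median of 0.22, beside a median of 0.06 over all genes.

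The values of SAP libraries 1 and 2 carried most of these differences. With SAP libraries 3 and 4 alone, the log2 fold change was 0.58 for Mlkl (adjusted p = 0.631 in edgeR), 0.44 for Xiap and 0.31 for Casp8, and -0.0020 for Ripk1. Without SAP library 2, Mlkl was at 1.37 and Xiap at 1.47. Without SAP library 1, Ripk3 turned from 0.22 to -0.25. With offsets that removed the trend on gene length, Xiap was at 1.07, Casp8 at 0.56 and Mlkl at 1.68, and Bax, one of the shorter genes at a length percentile of 9.75, turned from -0.09 to 0.41. In a fit added after the data were seen, DESeq2 called Mlkl (adjusted p = 0.0247) and Xiap (adjusted p = 0.0244) when control libraries 1 and 2 entered separately.

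JZL184 against SAP asks what the inhibitor changed in rats with pancreatitis. Mlkl stood lowest relative to SAP, at a fold of 0.221, followed by Casp8 at a fold of 0.491. Bbc3 and Mcl1 were higher, at folds of 1.84 and 1.56. edgeR called 0 of the 9 genes and 0% of the 15308 tested. DESeq2 called 1 of the 9, Mlkl, against 6.98% of its genes, and limma-voom called Mlkl alone, against 4.57%. At an unadjusted p below 0.05 in edgeR, 2 of the 9 were higher and 2 lower, against 21.3% of all genes.

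Mlkl had a log2 fold change of -2.18 (SE 0.47) in JZL184 against SAP. Its adjusted p was 0.0851 with edgeR, 8.12e-04 with DESeq2 and 0.0489 with limma-voom. With all 3 groups in 1 edgeR fit it was 0.0498. Over all alternatives it lay between 8.12e-04 and 0.224, and the log2 fold change between -2.43 and -1.21. Mlkl was the one gene of the 9 with no overlap between the groups, lower in 4 of 4 JZL184 libraries. This held for 5.59% of all genes in that direction and 6.23% in the other. On FPKM the difference was -19.0, with a two-sided exact permutation p of 0.0286, the smallest that 4 samples against 4 can give.

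Casp8 had a log2 fold change of -1.03 (SE 0.41, adjusted p = 0.198 in edgeR), Bbc3 of 0.88 (SE 0.33, adjusted p = 0.183) and Mcl1 of 0.64 (SE 0.28, adjusted p = 0.221). Xiap was at -0.90 (SE 0.52), Ripk3 at -0.78 (SE 0.47) and Ripk1 at -0.32 (SE 0.33). Bax was at -0.14 (SE 0.27) and Bcl2l1 at 0.33 (SE 0.26). The exact permutation p on FPKM was 0.0571 for Bbc3 and 0.0857 for Casp8, and at least 0.114 for the other 6 genes beside Mlkl. Of the 9, 3 were positive and 6 negative, with a median log2 fold change of -0.32, beside -0.05 over all genes.

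With SAP libraries 3 and 4 alone, Mlkl was at -1.21 in JZL184 against SAP (adjusted p = 0.203 in edgeR). Casp8 was then at -0.52, Bbc3 at 0.57 and Mcl1 at 0.76, while Xiap turned to 0.33 and Ripk1 to 0.23. Without SAP library 2, Mlkl was at -1.96 and its adjusted p was 0.185. Without JZL184 library 1 it was at -2.37 and was called by edgeR, with an adjusted p of 0.0459.

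**Figure D3:**
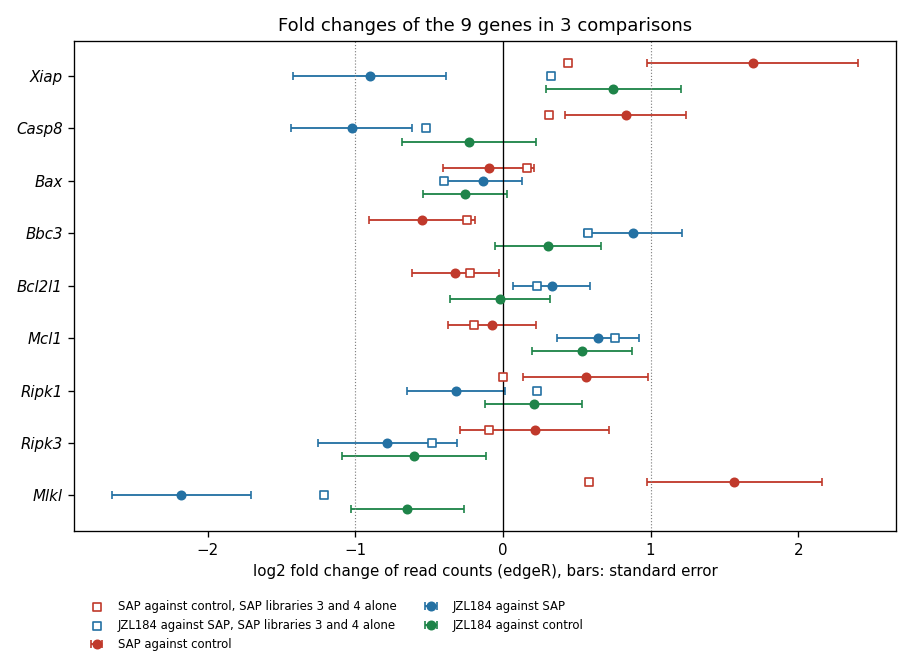
Log2 fold change of read counts from edgeR (horizontal axis) for the 9 genes (rows) in the 3 comparisons. Circles with bars are fold changes with their standard error, open squares are the same with SAP libraries 3 and 4 alone, and dotted lines mark a fold of 2 or 0.5. Mlkl lies at 1.57 in SAP against control and at -2.18 in JZL184 against SAP, and the squares lie nearer 0 for both.

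JZL184 against control asks how far treated rats differed from controls. None of the 9 genes passed the test. edgeR called 0 of them, against 2.16% of the 15916 genes tested. DESeq2 and limma-voom also called 0, against 10.8% and 18.3%. At an unadjusted p below 0.05, 0 of the 9 were found, against 26.3% of all genes. The largest differences were log2 fold changes of 0.75 (SE 0.46) for Xiap, -0.65 (SE 0.38) for Mlkl, -0.60 (SE 0.49) for Ripk3 and 0.54 (SE 0.34) for Mcl1. Their adjusted p in edgeR were 0.327, 0.311, 0.456 and 0.341.

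The remaining genes lay within 0.31 of 0 in JZL184 against control. Bbc3 was at 0.31 (SE 0.36), Bax at -0.26 (SE 0.28), Casp8 at -0.23 (SE 0.45), Ripk1 at 0.21 (SE 0.33) and Bcl2l1 at -0.02 (SE 0.34). In CPM with TMM factors, Mlkl had no overlap between the groups and was lower in JZL184. This held for 19.3% of all genes in that direction and 18.9% in the other. Mlkl overlapped on FPKM, with JZL184 library 1 at 6.85 and control libraries 1 and 2 at 6.51 and 6.70. On FPKM the exact permutation p was 0.2 for Mlkl and 0.133 for Mcl1. The median of the 9 log2 fold changes was -0.02, beside 0.08 over all genes. The comparisons share samples, so that a high SAP level enters SAP against control and JZL184 against SAP with opposite signs.

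Summed levels of cell type markers differed between the groups. The summed FPKM of 8 neutrophil markers was 2.82 and 5.31 in the control samples, between 37.9 and 180 in SAP and between 166 and 618 in JZL184. Most of it came from S100a8, S100a9 and Lcn2, which epithelial cells also express. Elane was below 0.1 FPKM in the mean over all samples and Ngp near 0.1. Ngp was at 0.00, 0.50, 0.29 and 0.12 in the JZL184 libraries. Cxcr2, which marks neutrophils themselves, was listed at 0 in all control libraries and between 0.02 and 0.39 in the others. Mpo, the peroxidase of neutrophil granules, was lower in every other library than in the control libraries, at 0.38, 0.33 and 0.56 in control, between 0.07 and 0.30 in SAP and between 0.08 and 0.25 in JZL184. Its log2 fold change against control was -1.36 in SAP and -1.38 in JZL184, and neither was called. Of all genes, 11.9% were lower and 11.3% higher without overlap in SAP against control, and 19.3% and 18.9% in JZL184 against control. The sum of 9 enterocyte markers was 41908 and 42098 in the control samples, between 12245 and 26819 in SAP and between 6811 and 23679 in JZL184. Fabp6 alone made 50.4%, 38.9% and 23.2% of the summed means of control, SAP and JZL184, and with Krt20 and Fabp2 most of them. Other markers of the list differed from the sum. Cdh1 had means of 112, 144 and 172 FPKM, with all SAP and JZL184 libraries above all control libraries, and Lgals4 had means of 1899, 1936 and 2191. SAP libraries 1 and 2, with the highest Mlkl and Xiap levels, had the lowest enterocyte sums of the SAP group, 15341 and 12245.

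The sum of 7 macrophage markers was 303 and 349 in the control samples, between 144 and 366 in SAP and between 89.8 and 249 in JZL184. C1qa and C1qb made most of this sum. Cd163 and Mrc1, receptors of resident macrophages, were higher in all SAP and JZL184 libraries than in all control libraries. Of all genes, 11.3% were higher without overlap in SAP against control and 18.9% in JZL184 against control. In SAP against control Cd163 and Mrc1 were 7.95-fold and 5.65-fold higher in the edgeR fit. DESeq2 called both (adjusted p = 1.14e-04 and 1.75e-04) and edgeR neither (0.403 and 0.387). The other macrophage markers differed in direction in this comparison. Their log2 fold changes were 1.69 for Adgre1, 1.16 for Cd68, 0.03 for Csf1r, -0.46 for C1qa and -0.58 for C1qb. None of these was called by edgeR or DESeq2. T cell markers summed to 129 and 149 in the control samples, between 47.3 and 146 in SAP and between 95.5 and 118 in JZL184. B and plasma cell markers summed to 205 and 213, between 64.8 and 187, and between 83.6 and 128 in the same order. Smooth muscle markers summed to 1872 and 2064 in the control samples, between 801 and 2023 in SAP and between 367 and 2115 in JZL184. Of 7 exocrine pancreas markers in the tables, 6 were below a mean of 0.1 FPKM and only Cela1, at 4.19 to 12.04, was clearly present. The part of cell composition in the levels of the 9 genes was not tested.

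Ratios of FPKM between partners set their RNA levels side by side within a library. They depend on the gene lengths used and on the trend on gene length, and are given without a test. Mlkl to Ripk3 was 0.222 and 0.350 in the control samples, between 0.408 and 1.71 in SAP and between 0.126 and 0.429 in JZL184. Of the SAP samples, 3 were above all others, and JZL184 library 3 exceeded SAP library 3. Ripk3 to Ripk1 was 5.20 and 4.29 in the control samples, between 1.45 and 5.93 in SAP and between 1.36 and 4.02 in JZL184, so that all JZL184 libraries lay below both control samples. Of single genes, 19.3% were lower and 18.9% higher without overlap in JZL184 against control. The share of other gene pairs whose ratio separates the groups was not computed. Xiap to Casp8 was 0.365 and 0.593 in the control samples, between 0.506 and 1.15 in SAP and between 0.569 and 1.85 in JZL184.

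Of the BCL2 family, Bax to Bcl2l1 was 6.88 and 11.0 in the control samples, between 8.42 and 12.2 in SAP and between 5.27 and 10.1 in JZL184. Mcl1 to Bcl2l1 was 9.27 and 17.2, between 11.6 and 17.1, and between 15.4 and 22.9 in the same order. Bbc3 to Mcl1 was 0.0852 and 0.0882 in the control samples, between 0.0401 and 0.0846 in SAP and between 0.0458 and 0.147 in JZL184. The ratios of the pro-death to the survival genes overlapped between SAP and JZL184. Bbc3 to Mcl1 was lower in every SAP library than in both control samples, mostly through SAP libraries 1 and 2, at 0.0401 and 0.0506. SAP libraries 3 and 4, at 0.0834 and 0.0846, lay close to the control samples. JZL184 libraries 1, 2 and 4 were also below both control samples.

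**Figure D4:**
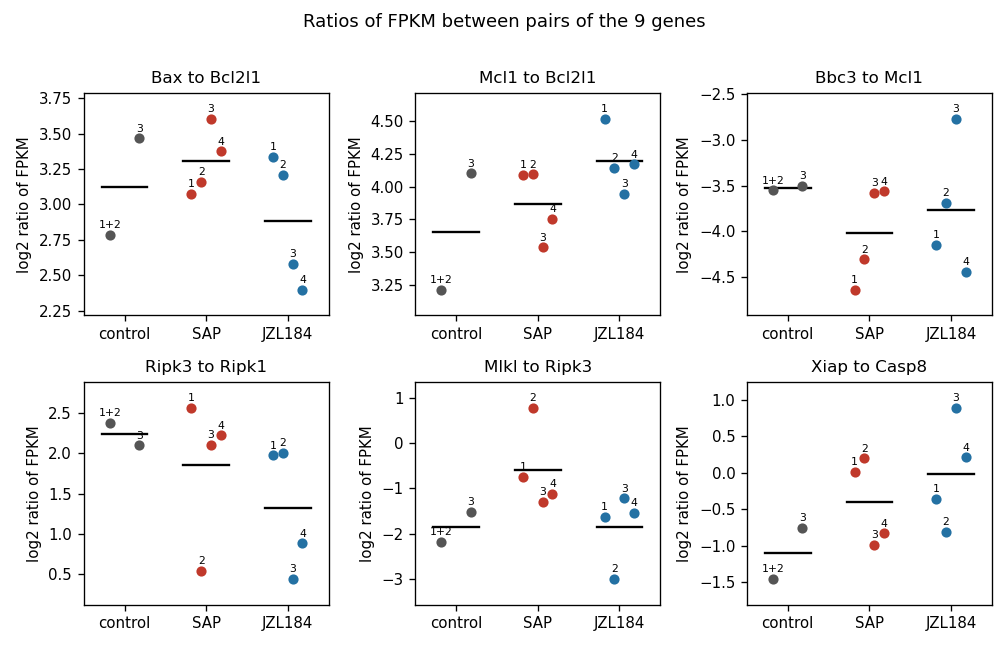
Log2 ratio of FPKM (vertical axes, not from 0) of 6 pairs of genes in each sample of the 3 groups, with the library number at each point and the mean as a line. Mlkl to Ripk3 lies highest in SAP, with SAP library 2 at a ratio of 1.71.

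Across the 10 samples, log2 levels of Casp8 and Mlkl moved together (Pearson r = 0.90), and those of Bbc3 ran against both (r = -0.93 with Casp8 and -0.91 with Mlkl). Of the 36 pairs these were the strongest, and Xiap and Mlkl had r = 0.71. The points share their group, their library and its trend on gene length, and SAP libraries 1 and 2 lie at the end of each. Ripk3 and Mlkl, which act in 1 complex, had r = 0.55, and Ripk1 and Ripk3 r = 0.28.

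Among 11054 other genes with a mean FPKM of at least 1, those whose log2 levels were most like a member over the 10 samples were named. Mlkl was like Cap1 (r = 0.97). Casp8 was most like Wdr36 (r = 0.98) and Slx4 (r = 0.98), and Xiap most like Zscan26 and Fmr1 (r = 0.99 each). Ripk1 was most like Rab11fip2 (r = 0.96) and Ptk6 (r = 0.95), and Ripk3 most like Plek2 (r = 0.88) and Zdhhc9 (r = 0.86). Bax was most like Txndc17 (r = 0.96) and B9d2 (r = 0.95), and Bbc3 most like Cry2 and Tnnt2 (r = 0.96 each). Bcl2l1 was most like Tor1a and Epha2 (r = 0.92 each), and Mcl1 most like Egln1 (r = 0.93) and Fam160a2 (r = 0.90).

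The rest of the pathway was read from 9 lists, with 80 genes tested in each comparison. In the following, values of these genes are log2 fold changes from edgeR unless a level is named, and those given without a call did not pass the test. In SAP against control, edgeR called 0 of the 80, with 6 higher and 3 lower at an unadjusted p below 0.05, which was 11.2% of them beside 9.09% of all genes. DESeq2 also called 0 of them, beside 1.23% of all genes. In JZL184 against SAP, edgeR called 0, with 14 higher and 8 lower at an unadjusted p below 0.05, which was 27.5% beside 21.3% of all genes. By DESeq2, 5 were called higher and 2 lower, which was 8.75% beside 6.98%. In JZL184 against control, edgeR called 1 higher and 1 lower, which was 2.5% beside 2.16% of all genes. At an unadjusted p below 0.05 there were 15 in each direction, 37.5% beside 26.3%. By DESeq2, 7 were called higher and 6 lower, which was 16.2% beside 10.8%. The DESeq2 shares of all genes include genes that edgeR filtered out. Among the 15308 genes that edgeR tested in JZL184 against SAP, DESeq2 called 563 higher and 581 lower. Among the 15916 in JZL184 against control, it called 1003 higher and 871 lower. In SAP against control, JZL184 against SAP and JZL184 against control, list medians lay between -0.39 and 1.04, between -0.40 and 0.40, and between -0.63 and 0.72. Beside them, the medians over all genes were 0.06, -0.05 and 0.08.

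Death ligands, receptors and adaptors held 10 genes, all tested, with 0 called in each comparison. The smallest p in JZL184 against SAP belonged to Tnf, the ligand that starts RIPK1 signaling, at a log2 fold change of 2.77 (SE 0.63, adjusted p = 0.0865 in edgeR, 4.76e-04 in DESeq2). Its mean FPKM was 0.720 in control, 0.893 in SAP and 5.24 in JZL184, and JZL184 library 1, at 0.91, lay among the SAP libraries. Tnfrsf1a, its receptor, was at 1.01 in the same comparison. In SAP against control the smallest p were those of Tnfrsf10b at 1.23 and Tnfsf10 at 0.90, receptor and ligand of the TRAIL system. In JZL184 against control they were those of Tnf at 2.86 and Tnfrsf21 at -1.04.

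Upstream regulators of RIPK1, which attach or remove ubiquitin or phosphorylate it, held 16 genes. In JZL184 against control 1 was called higher and 0 lower. It was Tnfaip3, which encodes A20, a brake on NF-kappaB and necroptosis signaling, with a log2 fold change of 3.56 (SE 0.58, adjusted p = 0.0279 in edgeR). Its FPKM was 0.82, 0.78 and 1.25 in the control libraries, between 1.09 and 4.15 in SAP and 5.87, 7.88, 19.09 and 16.37 in JZL184. All JZL184 libraries were above all others. Of all genes, 6.23% were higher without overlap against SAP and 18.9% against control. Against SAP, Tnfaip3 was at 2.61 (SE 0.49, adjusted p = 0.0817 in edgeR, 4.78e-05 in DESeq2). The call against control was lost without JZL184 library 2 (adjusted p = 0.0651), without JZL184 library 4 (0.0623) and without either control sample (0.177 and 0.470). Mapkapk2, the kinase that restrains RIPK1, was at 0.94 in JZL184 against SAP. Rbck1 was at -0.96 in SAP against control and -1.11 in JZL184 against control, and Tab1 was at -0.84 in SAP against control.

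The pro-death BCL2 list held 9 genes, of which 8 were tested. In JZL184 against control 1 was called lower and 0 higher. It was Bak1, the partner of Bax in pore formation, with a log2 fold change of -1.44 (SE 0.29, adjusted p = 0.0470 in edgeR, 0.00310 in DESeq2). Its FPKM was 44.34, 45.80 and 32.96 in the control libraries, between 23.24 and 27.70 in SAP and between 12.30 and 17.44 in JZL184. The 3 groups did not overlap, whereas Bax overlapped throughout. Of all genes, 11.9% were lower without overlap in SAP against control, 5.59% in JZL184 against SAP and 19.3% in JZL184 against control. The share with all 3 groups apart was not computed. Bak1 was at -0.79 in SAP against control and -0.62 in JZL184 against SAP, and neither passed the test. The call was lost with gene length offsets (adjusted p = 0.0526), without JZL184 library 2 (0.105) or 4 (0.0939), and without either control sample (0.171 and 0.554). Bok was at 1.69 (SE 0.39, adjusted p = 0.0889) in JZL184 against SAP, Bid at 0.76 in SAP against control and Bad at -1.07 in JZL184 against control.

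Of the 4 pro-survival BCL2 genes, 3 were tested and 0 called in each comparison. Bcl2, at a mean FPKM of 0.0725 in control, 0.545 in SAP and 0.453 in JZL184, was at 2.66 (SE 0.91) in SAP against control and 2.59 (SE 0.58, adjusted p = 0.0605) in JZL184 against control. Bcl2l2 was at 1.04, -0.28 and 0.72 in SAP against control, JZL184 against SAP and JZL184 against control. Bcl2a1 was at 0.84 in JZL184 against SAP. Of the 7 apoptosome and caspase genes, 0 were called in each comparison. Apaf1, the scaffold of the apoptosome, was at 0.84 in SAP against control and -0.44 in JZL184 against SAP.

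The IAP list, the relatives of Xiap and their antagonists, had 10 genes with 9 tested and 0 called. Birc3, which encodes cIAP2, a ubiquitin ligase for RIPK1, had a log2 fold change of 1.74 (SE 0.25, adjusted p = 0.0604 in edgeR, 2.44e-07 in DESeq2) in JZL184 against SAP. Its FPKM was between 16.89 and 31.07 in JZL184 and between 6.62 and 8.48 in SAP, without overlap. Of all genes, 6.23% were higher without overlap in this comparison. Against control, Birc3 was at 1.18. Birc2 was at 0.74 in JZL184 against SAP. Birc5, a gene of dividing cells, was at -1.20 and Naip6 at 0.77 in SAP against control, and Septin4 at -1.22 (adjusted p = 0.0538) in JZL184 against control.

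Necroptosis sensors and regulators held 9 genes, all tested, with 0 called. Tlr4 was at 1.32 and Aurka at -0.64 in SAP against control. Tlr3 was at -0.65 and Ticam1 at -0.81 in JZL184 against SAP. Aurka was at -1.07 and Stub1, a ubiquitin ligase for RIPK3, at -0.94 in JZL184 against control. The list had 7 negative and 2 positive values in JZL184 against SAP, with a median of -0.40, beside -0.05 over all genes.

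Of 12 symbols for p53 and its targets, the list to which Bbc3 is related, 11 were in the tables and tested, with 0 called. Sesn2 was at 0.84 in SAP against control and -0.96 (SE 0.26, adjusted p = 0.110) in JZL184 against SAP, opposite in sign to Bbc3 in both. Cdkn1a was at -0.87 in SAP against control, Tp53inp1 at 1.42 in JZL184 against SAP, and Ccng1 at 1.16 and Aen at 1.02 in JZL184 against control. Pyroptosis executors, genes of another lytic form of death, held 7 genes with 0 called. Casp12 was at 2.44 in SAP against control and -3.24 (SE 0.66, adjusted p = 0.0851 in edgeR, 8.84e-05 in DESeq2) in JZL184 against SAP. Casp1 was at -1.09 (SE 0.24, adjusted p = 0.0851 in edgeR, 0.00287 in DESeq2) in JZL184 against SAP and -0.63 against control, and Casp4 at 1.53 in SAP against control and 2.09 in JZL184 against control.

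Several of these values rested on SAP libraries 1 and 2. With SAP libraries 3 and 4 alone, an alternative added after the data were seen, edgeR again called 0 genes of the lists in both comparisons with SAP. In SAP against control the log2 fold change was then 1.04 for Casp12, 1.30 for Bcl2, 0.75 for Casp4, 0.59 for Tnfrsf10b, 0.45 for Bcl2l2 and 0.04 for Apaf1. In JZL184 against SAP it was -1.85 for Casp12 and 3.34 for Tnfaip3, and it turned its sign for Apaf1, to 0.35, and for Bcl2l2, to 0.29. The list of necroptosis sensors and regulators then had 6 negative and 3 positive values in JZL184 against SAP, with a median of -0.37.

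**Figure D5:**
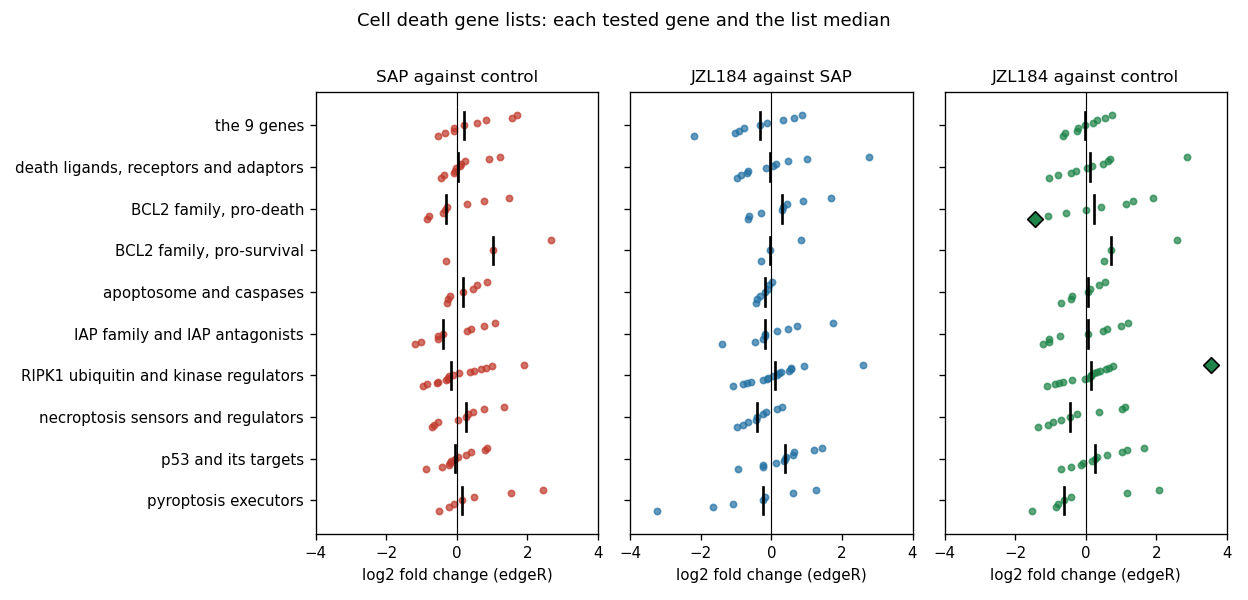
Log2 fold change from edgeR (horizontal axes) of each tested gene of the 9 cell death lists and of the 9 genes (rows) in the 3 comparisons, with the median of each list as a black line. Diamonds are genes called by edgeR, Bak1 at -1.44 and Tnfaip3 at 3.56 in JZL184 against control.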

How the data were processed

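Total RNA of rat ileum was made into stranded mRNA libraries and sequenced in 3 control, 4 SAP and 4 JZL184 samples. The authors trimmed reads with FASTX-Toolkit, mapped them to the mRatBN7.2 genome with HISAT2 and deposited, per gene, the unnormalized count of uniquely mapped reads. The authors also deposited FPKM, normalized for gene length and library size, with 2 decimals. For the counting tool and annotation, nothing is stated in the sources used here. The members and the gene lists were chosen with earlier results of these data known.

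Counts were compared between pairs of groups with edgeR 4.0.16 in R 4.3.3 (quasi-likelihood test, TMM, filter at a minimum count of 10), adjusted over all genes. The SE is the absolute log2 fold change divided by the square root of F. edgeR was also run on simulated data, the outcome of which is not reported here. DESeq2 1.42.0 and limma 3.58.1 gave alternatives, as did changed filters, size factors, samples and length offsets. FPKM were compared by two-sided exact permutation with Python 3.11.15 and scipy 1.17.1. P-values measure the spread between these samples, which may be technical, since the labels do not tie libraries to animals.

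Every member is named, with list genes that were called or had 1 of the 2 smallest p of their list in a comparison, and the 2 genes most like each member. Some genes that this rule names are not reported here. Motifs were chosen after the values were seen. Protein sequences and splice junctions were not used here.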

Additional observations from a re-analysis of the deposited data

Results flagged for a closer look

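In 18 groups of 4 samples, the sample farthest from the others was compared with Dixon's critical value, and 3 samples passed it, where chance gives about 1 in 20 groups. Casp8 in JZL184 library 1 was at 11.28 FPKM, with the other JZL184 libraries between 3.34 and 4.54. Bbc3 in JZL184 library 3 was at 6.54 FPKM, with the others between 3.17 and 3.56. Ripk3 in SAP library 1 was at 64.11 FPKM, with the others between 20.12 and 25.75.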

How the results depend on the processing

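Of the log2 fold changes of the 9 genes under alternatives, 398 had the direction and side of the threshold of the values above, 19 turned their sign and 6 became called, 5 of them for Mlkl. No reversed value was called. The causes were not tested. The lowest read count of the 9 genes in a library was 192, for Bbc3.

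The count of all genes called in SAP against control, JZL184 against SAP and JZL184 against control was 0, 0 and 343 with edgeR. It was 208, 1283 and 1899 with DESeq2, 14, 699 and 2906 with limma-voom, and 14, 27 and 929 without a filter. In SAP against control it was 4 with all 3 groups in 1 fit, 33 with control libraries 1 and 2 separate and 1434 when DESeq2 was also used. In JZL184 against SAP it was 207 with all 3 groups in 1 fit. In JZL184 against control it was 2800 with separate controls and 3482 when DESeq2 was also used. The median log2 fold change of all genes in that DESeq2 fit was 0.18 over 23630 unfiltered genes, against 0.08 over 15916 in the main fit. In edgeR, it was 0.16 without a filter and 0.09 with separate controls. Of the 9 genes, DESeq2 with separate controls called 2 in SAP against control. In JZL184 against SAP, DESeq2, limma-voom and all 3 groups in 1 fit called 1 each, Mlkl.

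Deviations of same-numbered libraries from their group mean correlated between -0.431 and 0.115. Differently numbered libraries were not compared, so these values cannot decide whether replicate numbers pair the samples. A replicate block was fitted with control libraries 1 and 2 separate. Against control, its reference is therefore the edgeR fit with separate controls given above. The block gave 1 gene called in SAP against control, 0 in JZL184 against SAP and 1488 in JZL184 against control. Both counts against control were lower than in that reference fit. With the replicate block and separate controls, Ripk1 turned to -0.041 in JZL184 against control.

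With SAP libraries 3 and 4 alone, an alternative added later, 74 genes passed in SAP against control and 0 in JZL184 against SAP. In SAP against control Bax turned to 0.17, Ripk1 to -0.0020 and Ripk3 to -0.10, and in JZL184 against SAP Xiap turned to 0.33 and Ripk1 to 0.23. Gene length offsets turned Bax to 0.41 in SAP against control. limma-voom turned Ripk1 to 0.023 in JZL184 against SAP and Bcl2l1 to 0.16 in JZL184 against control. With separate controls, the FPKM difference of Bcl2l1 in JZL184 against control turned to -0.121.

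Leaving out 1 sample at a time gave 0 to 3 genes called in SAP against control, the 3 without SAP library 4. It gave 0 to 655 in JZL184 against SAP, the 655 without JZL184 library 1, with 0 to 1 of the 9 genes called. It gave 0 to 1867 in JZL184 against control, the 0 without control sample 1 and 2, and the 1867 without JZL184 library 1. A lone control sample was assumed to vary like the other group. Log2 fold changes in SAP against control then ran from -0.19 to 0.026 for Bax, -0.60 to 0.013 for Bcl2l1, -0.21 to 0.070 for Mcl1 and -0.25 to 0.60 for Ripk3. FPKM differences ran from -0.78 to 2.97, -0.778 to 0.203, -2.85 to 7.91 and -1.93 to 13.1 in the same order. In JZL184 against SAP the FPKM difference of Bcl2l1 ran from -0.0925 to 0.528. In JZL184 against control Bcl2l1 ran from -0.30 to 0.30 in log2 and from -0.448 to 0.533 in FPKM, and Casp8 from -2.57 to 0.0758 in FPKM.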

Other observations

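Of the marker genes, 4 were called by edgeR, all in JZL184 against control, where 2.16% of all genes were called. They were 1 of 6 neutrophil, 2 of 7 macrophage and 1 of 6 B and plasma cell markers tested. None was called of 9 enterocyte, 6 T cell, 6 smooth muscle and 1 exocrine pancreas markers tested. Leaving out samples was not examined for the markers. Lcn2, an iron-binding protein of neutrophils and inflamed epithelium, was higher by 6.95 on the log2 scale (SE 0.87, adjusted p = 0.0155). Cd163 and Mrc1, scavenger and mannose receptors of resident macrophages, were higher by 2.99 (SE 0.55, adjusted p = 0.0398) and 2.34 (SE 0.46, adjusted p = 0.0454). Csf1r, the receptor that macrophages depend on, was at -1.42 (adjusted p = 0.0631). Of the other macrophage markers, C1qa was at -1.21, C1qb at -0.30, Adgre1 at -0.30 and Cd68 at 0.28, and none was called. Jchain, the joining chain of secreted IgA, was lower by 2.14 (log2 fold change -2.14, SE 0.37, adjusted p = 0.0350), with means of 104 FPKM in control, 68.0 in SAP and 23.7 in JZL184.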
